A study of Mus musculus with 4 samples.

Results

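A microarray of regulatory T cells (Treg) that had been transduced and cultured, titled si-Eos Treg, was set against a microarray of freshly sorted Treg, titled Treg. The titles chose the members, so they are 2 of the 4 arrays of the series, and no measured value entered the choice. Of the 41174 probes that are not controls, 26523 were well above background on both arrays, and they measured 17896 of the 27591 genes named on the array. With 1 array a group there is no replicate check: every difference below is between these 2 libraries, and no test was possible.

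Cells on all 4 arrays came from spleen and lymph nodes of BALB/c mice, whose age and number are not given in the sources used here. Fresh Treg were CD4+CD25+ cells, labelled natural Tregs and untransfected, which were enriched on magnetic beads and then sorted. The cells of the array titled si-Eos Treg were bead-enriched CD4+CD25+ cells that received a lentivirus with a short hairpin RNA against Eos and a GFP reporter, stayed for 60 h in medium with human IL-2, and were sorted for GFP. The array titled si-RL Treg holds cells taken through the same steps with a hairpin against Renilla luciferase, a gene mice lack, and the array titled naive holds freshly isolated naive CD4+CD25- T cells. Hairpin, virus, culture, IL-2 and GFP sort all differ between the cultured and the fresh array, so they cannot be told apart. The labels do not say whether animals were pooled.

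Regulatory T cells are CD4 T cells that restrain other immune cells. They depend on the transcription factor Foxp3 and on IL-2, which they take up through a high-affinity receptor whose alpha chain is CD25. Eos, the product of Ikzf4, is a zinc finger protein of the Ikaros family that binds Foxp3 and takes part in gene silencing by it. T cells that are activated and cultured with IL-2 are known to leave quiescence, take up more glucose and amino acids, divide, and make effector proteins such as granzymes and chemokines.

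Values are processed signals of the scanner software, which are background-subtracted intensities in arbitrary units. Signals of different probes were not set against each other. The sums given below for marker lists of cell types do add processed signals of different probes, without scaling, so bright probes weigh most in them. Log2 differences are the array labelled si-Eos minus fresh Treg after each array was divided by its own 75th percentile, which was 392 in Treg and 320 in the array labelled si-Eos (303 in naive T and 262 in the array labelled si-RL). The error printed after ± is the scanner's estimate for the spots, with a median of 0.20 on the log2 scale, and it covers no difference between cell preparations. Between 64.0% and 68.3% of probes were well above background on each array, no spot was saturated, and all 4 arrays lay on 1 slide.

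The gene that the hairpin is directed at, Ikzf4, had no direction shared by its probes in the array labelled si-Eos, and the only lower probe was at -0.25 ± 0.20. The 3 Ikzf4 probes lie on chromosome 10 of the mm8 build. The probe at chr10:128036782-128036841 gave 192 in naive T, 363 in Treg, and 249 and 107 in the arrays labelled si-Eos and si-RL, a log2 difference of -0.25 ± 0.20. At chr10:128036473-128036532 the signals were 39.1, 323, 425 and 89.6 in the same order, a difference of 0.69 ± 0.20. The probe at chr10:128037711-128038748 gave 61.1, 121, 141 and 50.6, a difference of 0.52 ± 0.21. On all 3 probes the array labelled si-Eos was above the array labelled si-RL, which goes against the labels, and so both are called by their labels throughout. If those labels were exchanged, the values given below for the array labelled si-Eos would belong to the control hairpin.

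Foxp3, the factor that defines the lineage, gave 64.4 in naive T, 1778 in Treg, and 2644 and 110 in the arrays labelled si-Eos and si-RL on its probe at chrX:6751991-6752050, a difference of 0.87 ± 0.20. The 2 arrays compared here were both high and the other 2 low. Among markers chosen to check the labelled cell type, Ctla4, an inhibitory receptor carried constitutively by Treg, gave 444 in naive T, 7222 in Treg, and 6778 and 991 in the arrays labelled si-Eos and si-RL, a difference of 0.20 ± 0.20. Cd3e, a chain of the T cell receptor complex, differed by -0.50 ± 0.20, Cd4 by -0.13 ± 0.20 and Cd8a by 0.28 ± 0.26, where the Cd8a signal was only 29.9 in Treg and 29.5 in the array labelled si-Eos. These 5 genes were therefore measured on both arrays, and each lay within 2-fold of fresh Treg on the probe used. Another Cd3e probe was at -1.37 ± 0.21. Il2ra, which was also chosen for this check, was not within 2-fold: it stood at 2.80 ± 0.20 and is given below.

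Across the 17896 genes, 1582 (8.84%) had a level in the array labelled si-Eos at least 2-fold above fresh Treg and 1796 (10.0%) at least 2-fold under it, and 360 and 561 were at least 4-fold apart in the same directions. The median gene stood at 0.06, with quartiles at -0.37 and 0.47. The split depends on the scaling: higher genes were 46.8% of those 2-fold apart, against 19.8% after normexp background correction and 20.9% after scaling to spike-in probes, which moved the median of all genes to -0.36 and -0.33. It was 55.8% after scaling to the array median, which moved that median to 0.17, and 52.0% with no filter on dim probes. Probes of one gene also disagree in places: of 963 genes that were 2-fold apart and had another measured probe, 139 (14.4%) had a probe of the opposite sign. By quartile of level, from dim to bright, 17.5%, 25.2%, 18.9% and 13.9% of genes were 2-fold apart. Gene lists are set below against 8.84% and 10.0%. Lists share members, so their counts are not independent of each other.

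**Figure D1:**
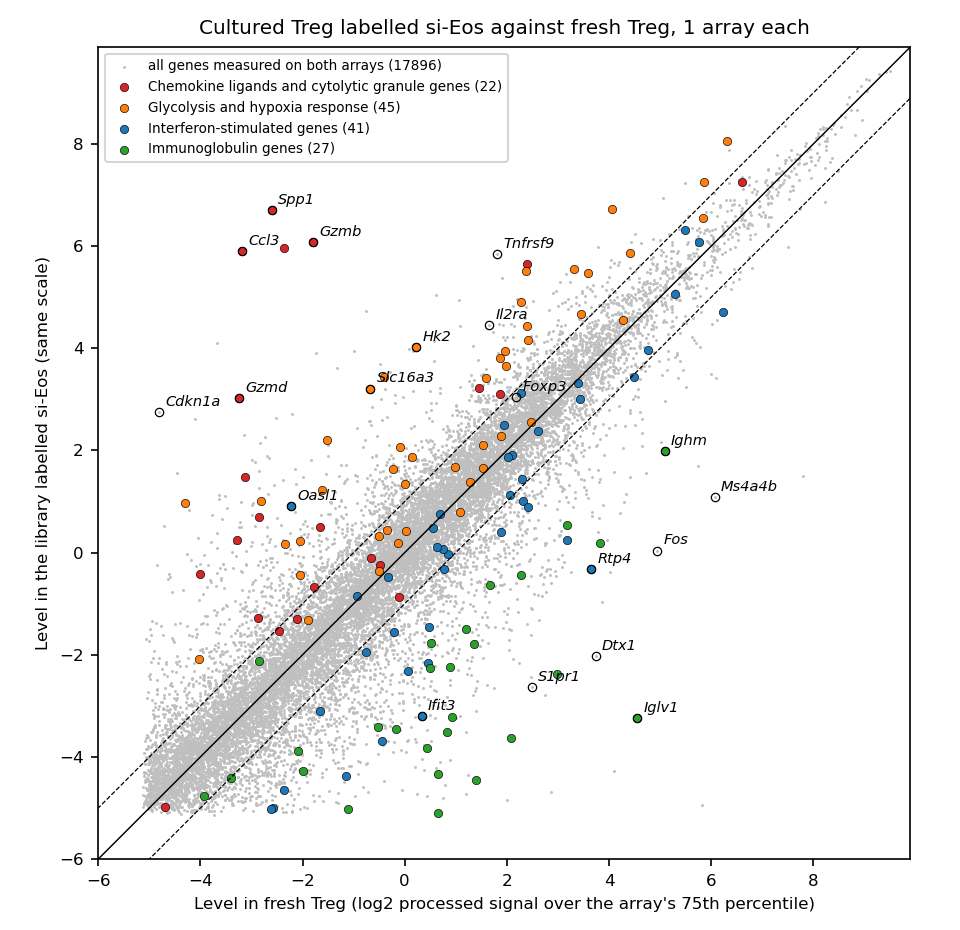
Each grey point is 1 of 17896 genes, with its level in fresh Treg on the x axis and in the array labelled si-Eos on the y axis, both as log2 processed signal over the array's 75th percentile; dashed lines mark 2-fold. Spp1, Ccl3 and Ccl4 stand farthest above the diagonal, and immunoglobulin genes such as Iglv1 are among those far below it.

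Chemokine and granule genes held the largest differences above fresh Treg. Of 10 measured chemokine ligands, the secreted proteins that attract other leukocytes, 7 lay at least 2-fold above fresh Treg and 0 as far below, with a median of 2.84 (4 higher after normexp correction, median 0.83). Spp1, which encodes the secreted cytokine osteopontin, gave 6.89 in naive T, 64.6 in Treg, and 33370 and 25.2 in the arrays labelled si-Eos and si-RL (not well above background in naive T), a difference of 9.31 ± 0.21. Ccl3 gave 15.5 in naive T, 43.0 in Treg, and 19228 and 13.2 in the arrays labelled si-Eos and si-RL, a difference of 9.10 ± 0.22, and its neighbour Ccl4 gave 21.4, 76.1, 20039 and 26.7 in that order, a difference of 8.33 ± 0.21. For these 3 genes the array labelled si-Eos stood alone, and the other 3 arrays lay at 76.1 or less. Ccl9 (3.59 ± 0.25), Ccl20 (3.53 ± 0.23), Xcl1 (2.15 ± 0.21) and Ccl5 (1.77 ± 0.20) were higher by less, and Cxcl10, a ligand induced by interferon, was at -0.77 ± 0.21. Ccl22, Cxcl3, Cxcl9 and Cxcl11 were not well above background on either array.

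Of 12 measured genes of cytolytic granules, 8 stood 2-fold or more above fresh Treg and 0 that far under it, with a median of 1.42, and 3 more, Gzme, Gzmf and Gzmg, were well above background in the array labelled si-Eos only. Gzmb, the granzyme that cleaves caspases in target cells, gave 27.1 in naive T, 112 in Treg, and 21650 and 1197 in the arrays labelled si-Eos and si-RL, a difference of 7.88 ± 0.21. Gzmd gave 28.1, 41.4, 2612 and 260 in the same order, a difference of 6.27 ± 0.22, and Gzmc differed by 4.60 ± 0.22. Gzmb was thus intermediate in the array labelled si-RL, well above both fresh arrays and well under the array labelled si-Eos. Granzymes C to G are close copies of each other, so their probes may share signal. Gzma was at 3.55 ± 0.22 and Nkg7, a granule membrane protein, at 3.25 ± 0.20, while the pore-forming protein perforin, Prf1, was at 1.09 ± 0.21 and at -0.04 after normexp correction. Srgn, the proteoglycan that holds granule contents, gave 20792, 38072, 49068 and 18993 and was 0.66 ± 0.20.

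Genes known to mark Treg lay on both sides. The Treg signature list had 37 measured members, of which 13 stood at least 2-fold higher, 6 lower and 18 within 2-fold, with a median of 0.37 that fell to -0.02 after spike-in scaling. Beside Gzmb, given above, the higher side held several receptors. Il2ra, the CD25 chain by which the cells were first enriched, gave 23.6 in naive T, 1228 in Treg, and 6972 and 1130 in the arrays labelled si-Eos and si-RL, a difference of 2.80 ± 0.20, though its 4 probes ran from 0.24 to 3.0. Tnfrsf9, the costimulatory receptor 4-1BB, gave 63.4 in naive T, 1371 in Treg, and 18330 and 638 in the arrays labelled si-Eos and si-RL, a difference of 4.03 ± 0.20. Both were highest of the 4 arrays in the array labelled si-Eos, with fresh Treg and the array labelled si-RL much closer to each other.

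The chemokine receptor Ccr8 (2.03 ± 0.21), the feedback inhibitor Socs2 (2.03 ± 0.20), the G-protein regulator Rgs16 (2.0 ± 0.20) and Penk (1.89 ± 0.20), which encodes the opioid precursor proenkephalin, were also higher. On the other side stood S100a4, a calcium-binding protein, with 1512 in naive T, 9838 in Treg, and 1358 and 983 in the arrays labelled si-Eos and si-RL, a difference of -2.56 ± 0.20. Nrp1, the semaphorin receptor neuropilin-1 that marks thymus-derived Treg, gave 32.7, 372, 61.7 and 46.3 in that order, a difference of -2.30 ± 0.21 with its 3 probes between -2.72 and -2.29. For S100a4 and Nrp1 fresh Treg was the high array, and the array labelled si-Eos lay near the array labelled si-RL. Areg (-1.79 ± 0.22), Ebi3 (-1.49 ± 0.20) and Klrg1 (-1.47 ± 0.20) were lower as well.

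Suppressive effectors, the molecules by which Treg act on other cells, were split in the same way. Of 17 measured, 8 lay at least 2-fold above fresh Treg and 3 as far below, with a median of 0.28 that was -0.11 after spike-in scaling. Il10, the gene of an anti-inflammatory cytokine, gave 13.0 in naive T, 204 in Treg, and 1755 and 8.16 in the arrays labelled si-Eos and si-RL (not well above background in si-RL), a difference of 3.40 ± 0.20. Lag3, an inhibitory receptor that binds MHC class II, gave 14.2, 310, 2003 and 4.45 (not well above background in si-RL) in that order, a difference of 2.98 ± 0.20. Both were low in naive T and in the array labelled si-RL and highest in the array labelled si-Eos. Gzma and Gzmb, given above, and Tgfb1 (1.85 ± 0.20) were higher, and Lgals9 (-1.06 ± 0.21), a galectin, was lower with Areg and Ebi3. The ectonucleotidases Entpd1 (0.08 ± 0.20) and Nt5e (-0.19 ± 0.20), which make adenosine at the cell surface, stayed within 2-fold.

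Eos belongs to the Ikaros family, and of 24 measured Ikaros family genes and Foxp3 partners, 3 stood 2-fold or more above fresh Treg and 1 that far under it, with a median of 0.21 that was -0.19 after spike-in scaling. Ikzf1, the founding member, gave 7784 in naive T, 6064 in Treg, and 1572 and 4175 in the arrays labelled si-Eos and si-RL, a difference of -1.65 ± 0.20. Ikzf3 stood at 1.19 ± 0.20 on its brightest probe and at 0.42 or less on its other 3, Ezh2, a histone methyltransferase, at 1.29 ± 0.20, and Ctbp2, a corepressor, at 1.83 ± 0.28 from a signal of 19.0 in Treg, which turned to -0.95 after normexp correction. Ikzf1 was thus lowest of the 4 arrays in the array labelled si-Eos. Among 25 DNA and histone methylation enzymes 2 were higher and 0 lower, with a median of 0.15 that was -0.24 after spike-in scaling.

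Activation markers and receptors of the TNF family, which appear on T cells after they meet antigen or cytokine, were higher in most cases: 17 of 28 measured lay at least 2-fold above fresh Treg and 3 as far below, with a median of 1.53. Havcr2, the inhibitory receptor TIM-3, gave 8.06 in naive T, 51.1 in Treg, and 1096 and 2.29 in the arrays labelled si-Eos and si-RL (not well above background in naive T and si-RL), a difference of 4.71 ± 0.22. Tnfrsf8, the receptor CD30, gave 23.1, 139, 1194 and 33.4 in that order, a difference of 3.39 ± 0.21. These 2 receptors were again high in the array labelled si-Eos alone. Tnfsf4, the OX40 ligand, which is not in that list, gave 5.90 in naive T, 44.3 in Treg, and 1592 and 1039 in the arrays labelled si-Eos and si-RL (not well above background in naive T), a difference of 5.46 ± 0.22, so it was high on both cultured arrays. The 3 lower members of the list were Cd86 (-3.01 ± 0.22), a costimulatory ligand, the early activation marker Cd69 (-1.66 ± 0.20) and Tnfsf11 (-1.04 ± 0.20).

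IL-2, the cytokine added to the culture, acts through STAT5, and of 23 measured IL-2 and STAT5 target genes 12 stood 2-fold or more above fresh Treg and 2 that far under it, with a median of 1.04. Beside Gzmb, Il10 and Il2ra they included Nfil3 (2.63 ± 0.20), a basic leucine zipper factor, and Cdk6 (2.18 ± 0.20), a kinase that drives cells out of G1. Cdk6 gave 239 in naive T, 1540 in Treg, and 5703 and 5135 in the arrays labelled si-Eos and si-RL, so both cultured arrays were above both fresh ones. The 2 lower members were Bcl6 (-1.69 ± 0.20), a repressor that STAT5 is known to oppose, and Ltb (-1.23 ± 0.20), lymphotoxin beta. The array labelled si-RL, also cultured with IL-2, shared this in part. Against fresh Treg it stood at 2.32 for Cdk6 and 3.99 for Gzmb. It stood at -0.25 for Nfil3, 0.46 for Il2ra, -0.26 for Bcl6 and 1.26 for Ltb, and Il10 was not well above background there. The part of IL-2 in these differences was not tested.

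Receptors for cytokines, Il2ra among them, were mixed, with 6 of 27 at least 2-fold higher, 4 lower and a median of 0.14 that was -0.25 after spike-in scaling and -0.01 after quantile normalization. The 2 chains of the IL-12 receptor, Il12rb2 (2.78 ± 0.29) and Il12rb1 (2.29 ± 0.20), were higher, and Il6ra (-2.05 ± 0.20), Il18r1 (-1.80 ± 0.20) and Il1rap (-1.71 ± 0.24) lower. Il12rb2 gave 18.6 in naive T, 17.1 in Treg, and 95.7 and 23.1 in the arrays labelled si-Eos and si-RL, and its difference turned to -0.54 after normexp correction. After spike-in scaling 3 of these receptors were higher and 7 lower.

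Of 17 measured effector cytokines 5 lay at least 2-fold above fresh Treg and 1 as far below, with a median of 0.23 that was -0.38 after normexp correction and -0.17 after spike-in scaling. Next to Il10 and Tgfb1 they were Il22 (3.02 ± 0.28), Il24 (2.29 ± 0.22) and Csf2 (2.17 ± 0.34). These 3 were dim in Treg, at 18.7, 47.3 and 13.6, and after normexp correction Il22 and Csf2 turned to -0.27 and -1.07 and the list to 3 higher and 5 lower. Ifng, the signature cytokine of type 1 helper cells, gave 439 in naive T, 4125 in Treg, and 3941 and 117 in the arrays labelled si-Eos and si-RL, a difference of 0.23 ± 0.20. Il17a, Il5 and Il6 were not well above background on either array.

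Among factors that direct helper lineages, 5 of 18 were at least 2-fold higher and 1, Bcl6, lower, with a median of 0.45, and 4 each way after spike-in scaling. Tbx21, which encodes T-bet of type 1 helper cells, gave 80.4 in naive T, 583 in Treg, and 4347 and 389 in the arrays labelled si-Eos and si-RL, a difference of 3.19 ± 0.20. The other 4 were Zbtb32 (2.05 ± 0.20), Eomes (1.73 ± 0.21, but -0.20 after normexp correction), Stat3 (1.62 ± 0.20) and Runx3 (1.12 ± 0.21). Dimmer probes of Stat3 and Runx3 were at 0.38 and 0.20, and with the median over a gene's probes 3 of the list were higher. Gata3, the type 2 factor, was at 0.73 ± 0.20. Tbx21 was higher in the array labelled si-Eos than on any of the other 3 arrays.

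**Figure D2:**
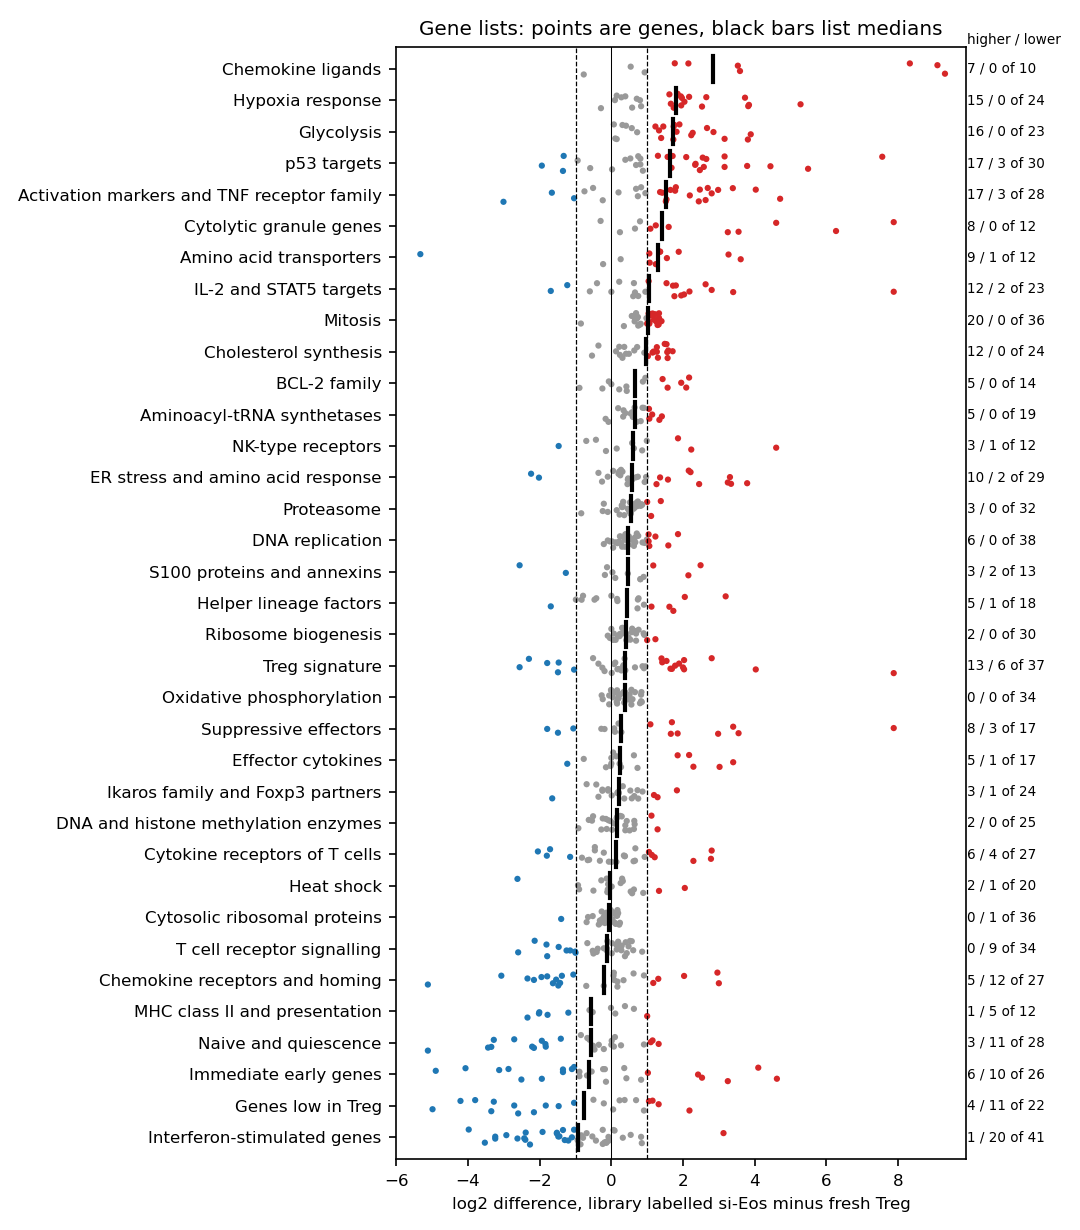
Each point is a gene measured on both arrays, placed by its log2 difference between the array labelled si-Eos and fresh Treg, with 1 line a gene list; black bars are list medians, dashed lines 2-fold, and the counts at the right are members at least 2-fold higher and lower of those measured. Of the lists drawn, which leave out the cell type marker lists, chemokine ligands have the highest median (2.84) and interferon-stimulated genes the lowest (-0.94).

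Genes of resting and recirculating T cells were lower. Of 28 measured genes of the naive and quiescent state 11 were at least 2-fold lower and 3 higher, with a median of -0.57, which was -0.07 after normexp correction and there lay above the median of all genes. S1pr1, the receptor that lets T cells leave lymph nodes, gave 4471 in naive T, 2203 in Treg, and 51.7 and 3600 in the arrays labelled si-Eos and si-RL, a difference of -5.12 ± 0.21. Tcf7, a factor that keeps T cells in a stem-like or naive state, gave 4897, 2800, 235 and 4464 in that order, a difference of -3.28 ± 0.20. In both the array labelled si-Eos was the low array, and the array labelled si-RL lay with the fresh cells.

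Tsc22d3, a leucine zipper protein induced by glucocorticoids, was at -3.44 ± 0.20, and the inhibitor Id3 at -3.35 ± 0.21. Ccr7, a lymph node homing receptor, went the other way at 0.91 ± 0.20, and so did Slfn2 (1.10 ± 0.20), which is known for keeping T cells quiescent. Klf2, which drives S1pr1, cannot be read from this array, since its probes gave -6.67 and 0.07.

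Of 22 measured genes listed as weakly expressed in Treg 11 were at least 2-fold lower and 4 higher, with a median of -0.77. On these arrays the list name did not hold for every member. Rasgrp2 gave 6053 in naive T and 2069 in Treg, but Slamf6 gave 1444 and 1710. Id3 (331 and 969) and Ifng (439 and 4125) were higher in Treg than in naive T. Ms4a4b, a membrane protein of T cells, gave 25810 in naive T, 26416 in Treg, and 680 and 26156 in the arrays labelled si-Eos and si-RL, a difference of -4.99 ± 0.20, and its 4 probes lay between -5.01 and -4.82. Slamf6, an adhesion receptor, was at -4.21 ± 0.21 and Rasgrp2, an activator of Rap1, at -3.80 ± 0.21. On the Ms4a4b probe the raw signals of the other 3 arrays were nearly equal and the array labelled si-Eos was far under them. Of the 4 higher members, Satb1 (1.32 ± 0.20) and Ly6c1 (2.18 ± 0.20) each had another probe of the opposite sign, and 1 member was higher after spike-in scaling.

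Of 27 measured chemokine receptors and homing molecules 12 were at least 2-fold lower and 5 higher, with a median of -0.21. Ccr6, which guides cells to mucosal tissue, gave 179 in naive T, 2474 in Treg, and 240 and 90.5 in the arrays labelled si-Eos and si-RL, a difference of -3.07 ± 0.20. Cxcr3, the receptor of interferon-induced chemokines, gave 442, 4740, 998 and 1209 in that order, a difference of -1.95 ± 0.20. In both genes fresh Treg was the high array of the 4. Ccr9 (-2.34 ± 0.22), which guides cells to the small intestine, was lower, and the integrin chains Itga4, Itgb7, Itgal and Itgb1 were at -1.63 ± 0.20, -1.54 ± 0.20, -1.48 ± 0.20 and -1.38 ± 0.20. On the higher side Itgav, an integrin chain that binds osteopontin, gave 180 in naive T, 441 in Treg, and 2884 and 581 in the arrays labelled si-Eos and si-RL, a difference of 3.0 ± 0.20.

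Components of T cell receptor signalling were within 2-fold in 25 of 34 cases, but the share at least 2-fold lower exceeded the 10.0% of all genes measured. Of 34 measured 0 stood 2-fold or more above fresh Treg and 9 that far under it, with a median of -0.11 that turned to 0.44 after normexp correction, where 4 were lower. The lower ones were led by Trat1 (-2.60 ± 0.20) and Sit1 (-2.14 ± 0.20), transmembrane adaptors, and Txk (-1.81 ± 0.20), a kinase of the Tec family. Cblb, a ubiquitin ligase that dampens activation, was at -1.79 ± 0.20, with another probe at 0.07. The kinases Lck and Zap70, at the head of the pathway, stood at -0.21 ± 0.20 and 0.61 ± 0.20.

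Immediate early genes, whose transcripts come and go within minutes to hours of a stimulus, lay on both sides. Of 26 measured 10 were at least 2-fold lower and 6 higher, with a median of -0.62, and after normexp correction 6 were lower and the median lay above that of all genes. Fos gave 11997 in naive T, 12012 in Treg, and 329 and 1904 in the arrays labelled si-Eos and si-RL, a difference of -4.90 ± 0.20. Dusp1, a phosphatase that shuts off MAP kinases, gave 13559, 21146, 1030 and 2632 in that order, a difference of -4.07 ± 0.20. Zfp36, which speeds the decay of cytokine messages, gave 4495, 5505, 512 and 574, a difference of -3.13 ± 0.20. For these 3 both fresh arrays were high and both cultured arrays low. Fosl2, another member of the Fos family, gave 74.0 in naive T, 34.4 in Treg, and 691 and 399 in the arrays labelled si-Eos and si-RL, a difference of 4.62 ± 0.23, with both cultured arrays high. Ier3 (4.10 ± 0.32), Atf3 (3.25 ± 0.20), Fosl1 (2.53 ± 0.30, but -0.75 after normexp correction) and Egr2 (2.42 ± 0.20) were higher too. Egr2, a factor of receptor signalling linked to tolerance, gave 721 in naive T, 2038 in Treg, and 8922 and 760 in the arrays labelled si-Eos and si-RL.

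Glycolysis, which breaks down glucose to pyruvate and lactate, was above fresh Treg in all 23 measured genes, of which 16 lay at least 2-fold above fresh Treg and 0 as far below, with a median of 1.73. Slc16a3, the lactate exporter MCT4, gave 115 in naive T, 246 in Treg, and 2969 and 3525 in the arrays labelled si-Eos and si-RL, a difference of 3.89 ± 0.20. Hk2, the inducible hexokinase, gave 25.7, 458, 5229 and 4046 in that order, a difference of 3.81 ± 0.20. Tpi1, triose phosphate isomerase, gave 975, 2021, 14700 and 14200, a difference of 3.16 ± 0.20. Both cultured arrays were several times above both fresh ones in each of these genes, and close to each other. Aldoc (2.85 ± 0.21) and Pgk1 (2.67 ± 0.20) followed. Slc2a3, Gpi1 and Slc16a1, which were under 2-fold, each had another probe below 0.

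Many glycolysis genes are targets of hypoxia-inducible factors, and of 24 measured genes of the hypoxia response 15 stood 2-fold or more above fresh Treg and 0 that far under it, with a median of 1.80. Stc2, a secreted glycoprotein, gave 13.1 in naive T, 19.9 in Treg, and 632 and 603 in the arrays labelled si-Eos and si-RL, a difference of 5.28 ± 0.28. Bnip3, a mitochondrial protein of mitophagy, gave 214, 295, 3452 and 3954 in that order, a difference of 3.84 ± 0.20. Vegfa, the vascular growth factor, gave 54.7, 56.0, 644 and 2710, a difference of 3.82 ± 0.21. All 3 were high on both cultured arrays, and Vegfa was highest in the array labelled si-RL. Egln3, an oxygen sensor, was at 3.73 ± 0.21 and Ddit4, an inhibitor of mTORC1, at 2.65 ± 0.20. P4ha2, a collagen hydroxylase, was not well above background in Treg and gave 182 in the array labelled si-Eos, at least 20.0-fold higher, while the array labelled si-RL gave 4194. Pdk1, which holds pyruvate out of the mitochondria, gave 425 in naive T, 277 in Treg, and 251 and 2599 in the arrays labelled si-Eos and si-RL, a difference of 0.15 ± 0.20. A dimmer Pdk1 probe was at 1.04 ± 0.21.

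Hypoxia-inducible factors bind elements with the core ACGTG, and the promoters of 2 genes that were higher are shown because both carry that core. Each line holds the 250 bases before the start site, read 5' to 3' on the gene's strand from RefSeq (GRCm38.p6), with matches to ACGTG on either strand in capitals. The Slc16a3 stretch is chr11:120948817-120949066 on the plus strand, and the Bnip3 stretch is chr7:138909507-138909756 on the minus strand.
Slc16a3: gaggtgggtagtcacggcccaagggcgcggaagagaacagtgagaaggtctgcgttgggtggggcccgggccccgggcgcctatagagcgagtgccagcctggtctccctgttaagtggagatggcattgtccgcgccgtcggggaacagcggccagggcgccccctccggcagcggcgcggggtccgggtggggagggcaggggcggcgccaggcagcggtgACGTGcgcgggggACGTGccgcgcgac
Bnip3: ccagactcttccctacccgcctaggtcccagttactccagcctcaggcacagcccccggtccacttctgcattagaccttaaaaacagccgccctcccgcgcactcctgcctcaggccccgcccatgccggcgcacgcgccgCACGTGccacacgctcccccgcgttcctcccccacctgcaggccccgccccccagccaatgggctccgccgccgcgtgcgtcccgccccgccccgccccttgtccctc
The Slc16a3 stretch held 2 matches, both within 27 bases of the start site. In Bnip3 the palindrome CACGTG was read on both strands and counted as 2 overlapping matches. Over windows of 250 bases before to 50 after each start site, ACGTG lay in 17 of 35 windows of glycolysis genes (48.6%), in 17 of 30 windows of hypoxia genes (56.7%) and in 6447 of all 32851 windows (19.6%). These shares count list members whatever their difference. Members with the core and members without it were found both above and under 2-fold: Stc2 (5.28) had no match, while Slc16a1 (0.57) had matches. Whether the core goes with the difference was not tested. A match is only a run of letters and is no measurement of binding.

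**Figure D3:**
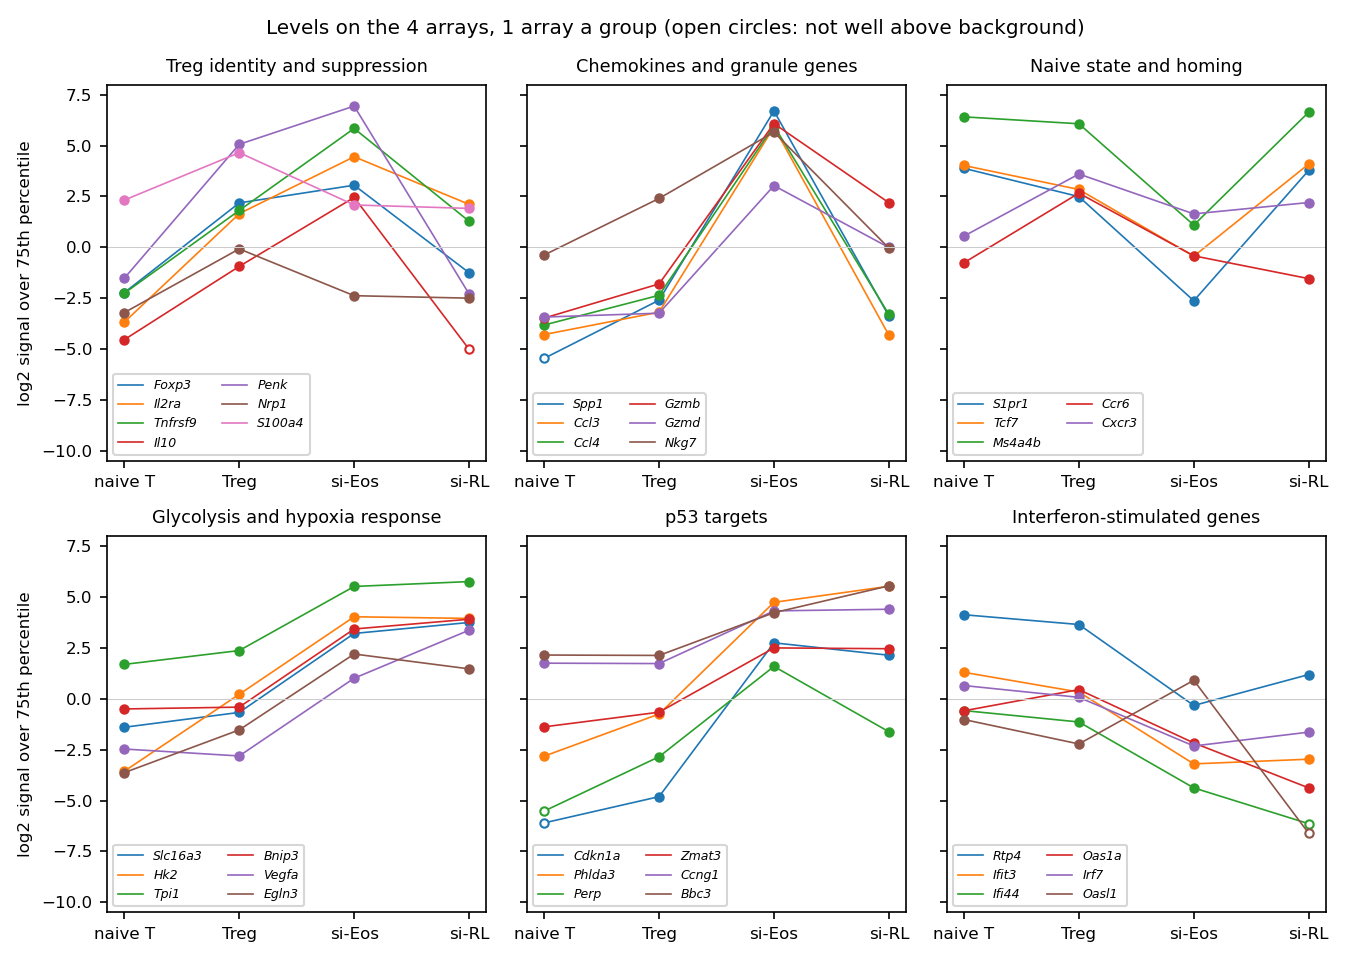
Levels of named genes on the 4 arrays, as log2 processed signal over each array's 75th percentile, with 1 array a group and open circles where a probe was not well above background. Chemokine and granule genes peak in the array labelled si-Eos, while glycolysis, hypoxia and most of the p53 target genes drawn are high on both cultured arrays.

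Genes that supply building blocks were higher as well. Of 12 measured amino acid transporters 9 lay at least 2-fold above fresh Treg and 1 as far below, with a median of 1.30 (4 higher after spike-in scaling). Slc1a4, a carrier of neutral amino acids, gave 37.9 in naive T, 27.3 in Treg, and 271 and 25.7 in the arrays labelled si-Eos and si-RL, a difference of 3.61 ± 0.24. Slc7a3, a carrier of arginine and lysine, was at 3.27 ± 0.23 and Slc7a5, which brings in large neutral amino acids, at 1.88 ± 0.20. The lower one, Slc7a10, gave 4.87 in naive T, 671 in Treg, and 13.7 and 2.02 in the arrays labelled si-Eos and si-RL (not well above background in naive T and si-RL), a difference of -5.33 ± 0.29. Slc1a4 was thus high in the array labelled si-Eos only, and Slc7a10 in fresh Treg only.

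Of 29 measured genes of ER stress and the amino acid response 10 stood 2-fold or more above fresh Treg and 2 that far under it, with a median of 0.59. Asns, asparagine synthetase and a target of the factor ATF4, gave 209 in naive T, 834 in Treg, and 6877 and 656 in the arrays labelled si-Eos and si-RL, a difference of 3.34 ± 0.20. Sesn2, a stress sensor that restrains mTORC1, gave 188, 437, 4945 and 3738 in that order, a difference of 3.79 ± 0.20. Asns was high in the array labelled si-Eos alone, whereas Sesn2 was high on both cultured arrays. Chac1 (3.31 ± 0.24), an enzyme that degrades glutathione, was higher, and chaperones of the ER such as Hspa5 (-0.26 ± 0.20) stayed within 2-fold. Aminoacyl-tRNA synthetases had 5 of 19 at least 2-fold higher and 0 lower, with a median of 0.65 and Aars (1.41 ± 0.20) at the top; after spike-in scaling 1 was higher and after normexp correction 9.

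Cholesterol synthesis had 12 of 24 measured genes at least 2-fold higher and 0 lower, with a median of 0.97 (6 higher after spike-in scaling). Hmgcs1, an early enzyme of the pathway, gave 931 in naive T, 1210 in Treg, and 3227 and 973 in the arrays labelled si-Eos and si-RL, a difference of 1.71 ± 0.20, although its 3 probes ran from -0.43 to 1.83. Msmo1 (1.59 ± 0.20), Fdps (1.57 ± 0.20) and Cyp51 (1.56 ± 0.20) were close behind. Of the 12, Idi1 (1.27 ± 0.20) was read from a probe that the file places on another chromosome than RefSeq does. For Hmgcs1 the array labelled si-RL lay with the fresh arrays.

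Several large groups lay near fresh Treg, although normexp correction put some of them higher. Of 34 subunits of oxidative phosphorylation 0 were 2-fold apart in either direction, with a median of 0.37 that was -0.02 after spike-in scaling; after normexp correction 14 were higher. Of 36 cytosolic ribosomal proteins 0 were higher and 1, Rpl14, lower (-1.40 ± 0.20), with a median of -0.07 that was 0.55 after normexp correction. Of 32 proteasome subunits 3 were higher and 0 lower, led by Psmb5 (1.38 ± 0.20), but 17 were higher after normexp correction, and of 30 ribosome biogenesis genes 2 were higher and 0 lower (6 higher after normexp correction). Of 20 heat shock genes 2 were higher and 1 lower, with a median of -0.04 that was 0.51 after normexp correction. Without that correction these shares lie under or near 8.84% and 10.0%.

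Genes that p53 activates after damage or stress were higher in most cases: 17 of 30 measured lay at least 2-fold above fresh Treg and 3 as far below, with a median of 1.63. Cdkn1a, the cyclin-dependent kinase inhibitor p21, gave 4.41 in naive T, 13.9 in Treg, and 2148 and 1154 in the arrays labelled si-Eos and si-RL (not well above background in naive T), a difference of 7.56 ± 0.32. Phlda3, which blocks AKT at the membrane, gave 43.0, 233, 8560 and 12131 in that order, a difference of 5.49 ± 0.20. Zmat3, a zinc finger protein that binds RNA, gave 116, 249, 1811 and 1440, a difference of 3.16 ± 0.20. The 3 genes were high on both cultured arrays and low on both fresh ones. Perp, a membrane protein of apoptosis, was 6.59 in naive T, 54.3 in Treg, and 963 and 85.2 in the arrays labelled si-Eos and si-RL (not well above background in naive T), a difference of 4.44 ± 0.21. Gtse1 was at 3.16 ± 0.21. Lower were Btg2 (-1.94 ± 0.20), Sesn1 (-1.35 ± 0.20) and Rrm2b (-1.33 ± 0.21).

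Of 14 measured BCL-2 family members 5 stood 2-fold or more above fresh Treg and 0 that far under it, with a median of 0.66, and they included both sides of the family. The death-promoting Bbc3 gave 1346 in naive T, 1722 in Treg, and 6004 and 12301 in the arrays labelled si-Eos and si-RL, a difference of 2.09 ± 0.20, with Bax at 1.57 ± 0.20 and Bak1 at 1.43 ± 0.20. The protective Bcl2l2 was at 2.17 ± 0.21 and Bcl2l1, which encodes BCL-XL, at 1.95 ± 0.20. Bcl2 and Mcl1 were 0.22 ± 0.20 and 0.00 ± 0.20.

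Genes of cell division were modestly higher. Of 36 measured mitosis genes 20 lay at least 2-fold above fresh Treg and 0 as far below, with a median of 1.02, but most of these lie close to 2-fold, and after spike-in scaling 1 was higher and 1 lower with a median of 0.62; after normexp correction 11 were higher. Ndc80, a kinetochore protein, gave 59.0 in naive T, 193 in Treg, and 414 and 505 in the arrays labelled si-Eos and si-RL, a difference of 1.40 ± 0.21. Cdk1, the kinase that starts mitosis, gave 38.8, 291, 595 and 147 in that order, a difference of 1.32 ± 0.20. Naive T was the low array for both. Of 38 DNA replication genes 6 stood 2-fold or more above fresh Treg and 0 that far under it, with a median of 0.47 (2 higher after spike-in scaling), led by Ccne2 (1.86 ± 0.24, but -0.78 after normexp correction) and Rfc3 (1.59 ± 0.20). The replication factor Mcm6 gave 2350, 8456, 9597 and 3986, a difference of 0.48 ± 0.20.

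Interferon-stimulated genes, which encode sensors and effectors against viruses, held more lower than higher members. Of 41 measured 20 were at least 2-fold lower and 1 higher, with a median of -0.94. After normexp correction 14 were lower and 3 higher, and the median of -0.45 lay close to the -0.36 of all genes. Of the 2 arrays compared, Oas2 and Cmpk2 were well above background in Treg only. Rtp4 gave 5300 in naive T, 4936 in Treg, and 255 and 599 in the arrays labelled si-Eos and si-RL, a difference of -3.98 ± 0.20. Ifit3, which binds viral RNA complexes, gave 747, 492, 34.8 and 33.6 in that order, a difference of -3.53 ± 0.22. Ifi44 gave 203, 177, 15.4 and 3.71 (not well above background in si-RL), a difference of -3.24 ± 0.29. Both fresh arrays were high for these 3 genes and both cultured arrays low. Irf7, the factor that amplifies the interferon response, was at -2.39 ± 0.21, and Mx1 at -2.43 ± 0.34 from a signal of 65.7 in Treg. The exception, Oasl1, gave 149 in naive T, 84.3 in Treg, and 602 and 2.68 in the arrays labelled si-Eos and si-RL (not well above background in si-RL), a difference of 3.13 ± 0.21. Ifit1 and the interferon-induced GTPase Irgm1 were within 2-fold, at -0.08 ± 0.20 and 0.85 ± 0.20, and the receptor chains Ifnar1 and Ifnar2 were both at -0.46 ± 0.20.

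Many of these genes carry elements bound by interferon-activated factors, and 2 promoters are shown because they hold GAAA, any 2 bases and GAAA again, in capitals, on either strand. They are the 250 bases before the start site from RefSeq (GRCm38.p6), chr19:34583279-34583528 on the plus strand for Ifit3 and chr5:120907526-120907775 on the minus strand for Oas1a, read 5' to 3' on the gene's strand.
Ifit3: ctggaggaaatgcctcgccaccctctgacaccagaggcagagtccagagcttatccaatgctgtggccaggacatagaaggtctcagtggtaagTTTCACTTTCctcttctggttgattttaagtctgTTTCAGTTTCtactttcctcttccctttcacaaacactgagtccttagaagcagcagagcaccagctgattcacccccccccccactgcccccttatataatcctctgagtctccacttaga
Oas1a: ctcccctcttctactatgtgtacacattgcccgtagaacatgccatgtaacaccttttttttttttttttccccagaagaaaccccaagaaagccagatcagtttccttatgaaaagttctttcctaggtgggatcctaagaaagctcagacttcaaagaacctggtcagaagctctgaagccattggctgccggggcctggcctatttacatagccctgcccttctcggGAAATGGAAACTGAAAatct
The Ifit3 stretch held 2 separate matches. The 2 matches of Oas1a overlap and lie within 20 bases of the start site. Oas1a gave 202 in naive T, 535 in Treg, and 71.1 and 12.6 in the arrays labelled si-Eos and si-RL, a difference of -2.62 ± 0.21. Over the windows of 250 bases before to 50 after the start, that spaced repeat lay in 19 of 41 windows of listed interferon-stimulated genes (46.3%) and in 1131 of all 32851 windows (3.44%). The first share counts listed genes whatever their difference: Ifit1 (-0.08) held the repeat, while Ifi44 (-3.24) did not. Whether the repeat goes with the difference was not tested. The Oas and Ifi genes are families of close copies, so their probes may share signal.

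Surface and adaptor genes shared with natural killer cells were mixed. Of 12 measured 3 lay at least 2-fold above fresh Treg and 1 as far below, with a median of 0.60 that was -0.66 after normexp correction, where 5 were lower. Klrk1, the activating receptor NKG2D, gave 11.4 in naive T, 13.7 in Treg, and 272 and 5.82 in the arrays labelled si-Eos and si-RL (not well above background in si-RL), a difference of 4.60 ± 0.33. Klrc2 (2.23 ± 0.31, but -0.98 after normexp correction) and Klrd1 (1.86 ± 0.21), partners in a receptor for nonclassical MHC, were higher, and Klrg1 was lower. Of 13 S100 proteins and annexins 3 were higher and 2 lower, with a median of 0.46. Anxa2, which binds membranes and plasminogen, gave 187 in naive T, 548 in Treg, and 1988 and 1412 in the arrays labelled si-Eos and si-RL, a difference of 2.15 ± 0.20, so both cultured arrays were above the fresh ones.

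MHC class II genes, which antigen-presenting cells use and mouse T cells largely lack, were lower in part: 5 of 12 measured were at least 2-fold lower and 1 higher, with a median of -0.56. Cd74, the invariant chain, gave 786 in naive T, 1657 in Treg, and 267 and 37.6 in the arrays labelled si-Eos and si-RL, a difference of -2.34 ± 0.20. H2-Oa, a chain that tempers peptide loading, gave 175, 768, 155 and 337 in that order, a difference of -2.01 ± 0.20, and Ctss, the protease that trims the invariant chain, was at -1.78 ± 0.20. H2-Aa was at -1.20 ± 0.21 while its partner chain H2-Ab1 was at 0.63 ± 0.20, and Ciita, the master regulator of the class, was at 1.0 ± 0.23 from a signal of 41.5 in Treg, and at -0.93 after normexp correction. Fresh Treg was highest of the 4 arrays for Cd74 and H2-Oa, as it was for the summed B cell markers given below, and the part of such cells was not tested.

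Some genes with no place in the lists were among the farthest apart. Ins2, an insulin gene, gave 26.6 in naive T, 30.9 in Treg, and 5538 and 24.6 in the arrays labelled si-Eos and si-RL, a difference of 7.78 ± 0.23, and Ins1 gave 10.3, 17.9, 939 and 10.5 (not well above background in naive T) in that order, a difference of 6.01 ± 0.28. The insulin genes are near-identical copies, so their probes may share signal. Myh7, a cardiac myosin heavy chain, gave 14.4 in naive T, 22.7 in Treg, and 1969 and 172 in the arrays labelled si-Eos and si-RL, a difference of 6.73 ± 0.27. All 3 were highest in the array labelled si-Eos, and Myh7 was next highest in the array labelled si-RL. Psrc1, a spindle protein, gave 24.6 in naive T, 117 in Treg, and 4803 and 4973 in the arrays labelled si-Eos and si-RL, a difference of 5.65 ± 0.21, and Metrnl, a secreted protein, was at 5.15 ± 0.21. On the lower side Dtx1, a ubiquitin ligase of the Notch pathway, gave 4345 in naive T, 5226 in Treg, and 78.1 and 81.1 in the arrays labelled si-Eos and si-RL, a difference of -5.77 ± 0.21. Slpi, an inhibitor of leukocyte proteases, gave 1160 in naive T, 666 in Treg, and 11.5 and 492 in the arrays labelled si-Eos and si-RL, a difference of -5.56 ± 0.31. Dtx1 was low on both cultured arrays and Slpi in the array labelled si-Eos only. Scg5, a chaperone of prohormone processing, gave 2784, 2190, 58.9 and 1037 in that order, a difference of -4.92 ± 0.21, and Capn3, a calpain protease, gave 95.9, 907, 28.0 and 252, a difference of -4.72 ± 0.23. The brighter probe filed under Cisd3, an iron-sulfur protein of mitochondria, was at -5.53 ± 0.21, but the file places it at chr6:69578424-69578483 (mm8), on the chromosome of the kappa light chain genes, and it is not read as Cisd3. The probe on chromosome 11, where RefSeq has Cisd3, was at -0.28.

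Other genes were well above background on only 1 of the 2 arrays, 1042 in the array labelled si-Eos and 867 in Treg, so that only a lower bound could be given. Akr1c18, a steroid dehydrogenase, gave 2.62 in naive T, 9.66 in Treg, and 3728 and 354 in the arrays labelled si-Eos and si-RL (not well above background in naive T and Treg), at least 408-fold higher. Cyp11a1, which turns cholesterol into pregnenolone, gave 5.19 in naive T, 7.19 in Treg, and 541 and 5.37 in the arrays labelled si-Eos and si-RL (not well above background in naive T, Treg and si-RL), at least 59.3-fold higher. Inhba, the activin subunit, gave 3.98 in naive T, 9.55 in Treg, and 1274 and 10.7 in the arrays labelled si-Eos and si-RL (not well above background in naive T and Treg), at least 139-fold higher. Akr1c18 was also well above background in the array labelled si-RL, but Cyp11a1 was not. Serpine2, a protease inhibitor, was at least 123-fold higher and Lama5, a laminin chain, at least 157-fold. Galnt3, which starts O-linked glycosylation, was at least 70.7-fold higher. In the other direction Cpne4 was at least 28.4-fold lower and Rapgef4, an exchange factor for Rap1, at least 18.8-fold lower. Rapgef4 gave 1337 in naive T, 210 in Treg, and 7.37 and 662 in the arrays labelled si-Eos and si-RL (not well above background in si-Eos). Pgap1, an enzyme of GPI anchors, was at least 18.3-fold lower and Esm1, a secreted proteoglycan, at least 24.4-fold.

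Immunoglobulin genes, which B cells and plasma cells transcribe, were nearly all lower. They were picked out by symbol after their values had been seen. Of 34 on the array 27 were measured on both arrays, of which 25 were at least 2-fold lower and 0 higher, with a median of -3.12, and 6 more were well above background in Treg and not in the array labelled si-Eos. Iglv1, a lambda light chain gene, gave 8066 in naive T, 9203 in Treg, and 34.0 and 108 in the arrays labelled si-Eos and si-RL, a difference of -7.79 ± 0.22. Ighm, the constant region of IgM, gave 4184, 13322, 1274 and 3554 in that order, a difference of -3.09 ± 0.20, and its other probe on chromosome 12 was at -5.77. Jchain, the joining chain of secreted antibodies, gave 7008 in naive T, 8827 in Treg, and 6.70 and 18.4 in the arrays labelled si-Eos and si-RL (not well above background in si-Eos) on its brighter probe, and its other probe was at -8.02. These 3 genes were high on both fresh arrays and low on both cultured ones, except that the brightest Ighm probe gave 3554 in the array labelled si-RL, near naive T. In a bulk sample fewer cells of a type and less RNA per cell cannot be told apart.

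Markers of other cell types were read as lists. Of 7 B cell markers 5 were measured on both arrays and 2 of these were lower, Blnk (-3.60 ± 0.33) and Cd79b (-2.76 ± 0.21). Of the rest, 1 was well above background in the array labelled si-Eos only and 1 in Treg only, each at least 2-fold apart by its bound. The summed signal of the 7 was 540 in naive T, 1199 in Treg, and 393 and 311 in the arrays labelled si-Eos and si-RL. The plasma cell list summed to 11965, 23255, 3060 and 3958 in that order, and of its 4 measured members 1 was at least 2-fold higher and 2 lower. The sum was thus highest in fresh Treg in both lists. The stromal list, led by the lymph node chemokine Ccl19 (-2.96 ± 0.20), summed to 2028, 3121, 472 and 268.

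Myeloid markers summed to 534, 672, 619 and 504 and dendritic cell markers to 691, 867, 645 and 335, so neither differed 2-fold between the 2 arrays. Of the myeloid list 1 of 5 measured was at least 2-fold higher, Cd68 (1.35 ± 0.21, but -0.13 after normexp correction), and the list's median of 0.57 was -0.46 after that correction. The macrophage gene Lyz2 was at 57.2 in Treg and not well above background in the array labelled si-Eos on 1 probe, and at 14.9 and 17.9 on the other. Itgam was not well above background on either array. Spp1, Ccl3 and Ccl4 are also made by myeloid cells, and the part of such cells in their signal was not tested. Markers of CD8 T cells and natural killer cells, which also carry granzymes, summed to 1776, 1421, 1604 and 813. Their median of 1.0 was -0.02 after normexp correction, and Klrk1, Klrd1 and Eomes were higher. Ncr1 was well above background in Treg only and 1 other marker in the array labelled si-Eos only, each at least 2-fold apart by its bound. Cd8b1 gave 1162 in naive T, 1139 in Treg, and 761 and 500 in the arrays labelled si-Eos and si-RL, a difference of -0.29 ± 0.20. A dimmer probe filed under the name was at 1.37, but the file places it on another chromosome. A dim Cd8a probe gave 4.70 in Treg, not well above background, and 16.1 in the array labelled si-Eos, well above it. Cd8a probes measured on both arrays were at 0.28 and 0.17. The part of CD8 T cells and natural killer cells in the granzyme signal was not tested. The platelet gene Pf4 was well above background in the array labelled si-Eos only, at least 24.6-fold higher, while other erythrocyte and platelet markers except Hba-a1 (-1.71 ± 0.22) were near background.

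**Figure D4:**
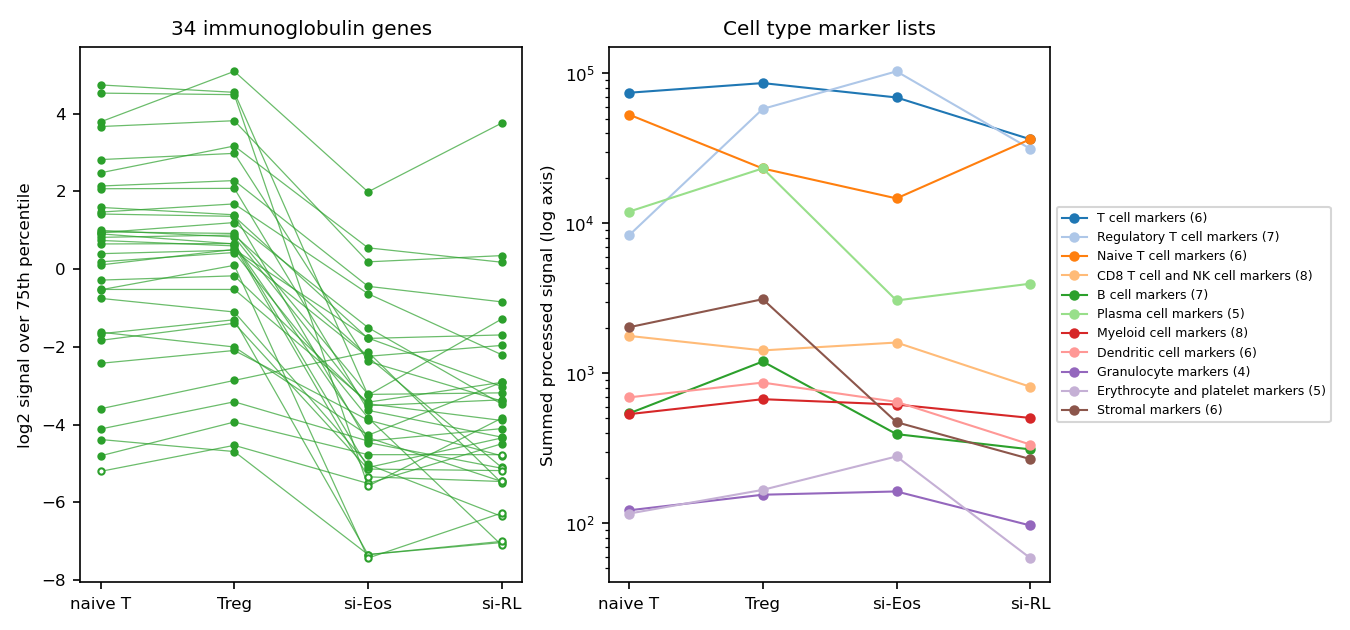
Left, levels of 34 immunoglobulin genes on the 4 arrays, as log2 processed signal over each array's 75th percentile, with open circles where the probe was not well above background. Right, summed processed signal of each cell type marker list on a log axis, with the number of genes on the array in brackets; the plasma cell sum was 23255 in Treg and 3060 in the array labelled si-Eos.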

How the data were processed

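RNA was extracted with Trizol, amplified linearly and labelled with Cy3, per the labels' protocols. Each array is an Agilent scanner file whose processed signal, an intensity, was deposited after background subtraction. Per the file headers, the software was Agilent Feature Extraction 9.5.3.1 and probe positions are on the mm8 build. The deposited value table held the same intensities within 0.5%.

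Probes that are not controls were divided by each array's 75th percentile, and log2 was taken. Of 41174 probes 24490 were named by accession in RefSeq (GRCm38.p6), 6234 by symbol, 2391 by synonym and 8059 keep the file's name. The probe brightest over the 4 arrays stood for a gene, and a gene counted as measured where that probe was well above background in both. A gene counted as higher or lower at 2-fold. A gene above background on only 1 array has a bound, which was set against the lowest signal among probes well above background or the probe's own signal if higher. Analyses used Python 3.11.15, numpy 2.4.6, pandas 2.3.3 and limma 3.58.1 (normexp, offset 50), and the calls were checked on simulated data.

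The 46 gene lists (843 of 859 genes on the array) and the members were chosen with earlier results of these data known. Named genes are the 15 largest differences each way whose probes share a sign, up to 5 members of a list, up to 8 bounds each way, and hallmark genes. A further 75 genes named, among them Cxcr3, Egr2, Ifng, Klf2, Oas1a, Pdk1, Zfp36 and Zmat3, were chosen after their values were seen. Some list members are counted but not reported by name here. Of 367 probes of named genes with a position, 6 lie on another chromosome than RefSeq gives the gene. Spot flags left out 71 to 94 spots an array. Alternatives were normexp correction, 3 other scalings (array median, quantile, spike-in probes), no filter on dim probes, the median over a gene's probes, and the deposited value table.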

Additional observations from a re-analysis of the deposited data

Results flagged for a closer look

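The genes named here were, on the probe used, at least 2-fold from fresh Treg in opposite directions on the cultured arrays labelled si-Eos and si-RL. Both differences share the Treg array, each group has 1 array, and the difference between them was not tested.

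Penk stood at 1.89 in the array labelled si-Eos and -7.35 in the array labelled si-RL. Zbtb32 stood at 2.05 and -4.40 in the same order, Ly6c1 at 2.18 and -4.07, Rgs16 at 2.0 and -3.37, Nkg7 at 3.25 and -2.44, Prf1 at 1.09 and -2.39, Il12rb1 at 2.29 and -1.97, and Eomes at 1.73 and -1.53. Tnfrsf8 stood at 3.39 and -1.48, Rfc3 at 1.59 and -1.18, Aars at 1.41 and -1.16, Idi1 at 1.27 and -1.03, and Ccl3 at 9.10 and -1.13. After normexp correction Prf1 and Eomes turned to -0.04 and -0.20 in the array labelled si-Eos.

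S1pr1, Tcf7 and Ltb went the other way, lower in the array labelled si-Eos and higher in the array labelled si-RL. S1pr1 stood at -5.12 and 1.29, Tcf7 at -3.28 and 1.25, and Ltb at -1.23 and 1.26. For S1pr1 and Tcf7, which are high in naive T cells, the array labelled si-RL was within 2-fold of naive T.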

How the results depend on the processing

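No paired analysis was possible because each group has 1 array, so the groups share only the replicate number 1. For the same reason no array was left out in turn.

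The 1582 genes at least 2-fold higher became 826 after scaling to spike-in probes and 3020 with no filter on dim probes. The 1796 lower genes became 3119 and 2788 under the same alternatives and 5856 after normexp correction. With the array median, quantile normalization, the median over a gene's probes or the deposited value table, both counts stayed within 1.5 times. The cause of these shifts was not tested.

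List medians changed sign, among those of at least 0.5 in size, only after normexp correction, for NK-type receptors (-0.66), markers of CD8 T and NK cells (-0.02) and myeloid markers (-0.46), and with no filter for myeloid markers (-0.06). Normexp correction also turned 11 of the named genes: Ccne2 (-0.78), Cd68 (-0.13), Ciita (-0.93), Csf2 (-1.07), Ctbp2 (-0.95), Eomes (-0.20), Fosl1 (-0.75), Il12rb2 (-0.54), Il22 (-0.27), Klrc2 (-0.98) and Prf1 (-0.04). Among the 189 named genes measured on both arrays, no other gene that was 2-fold apart changed sign under these 7 alternatives.

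With 1 array a group, the spread between preparations is unknown, and the scanner error covers the spots alone. Genes near background carry only a bound.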
